A study of Mus musculus with 4 samples.

Results

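The genes described here are 60 splicing factors and RNA-binding proteins of mouse ventricle, out of 8251 genes with a probe set of their own on the array. Members were chosen by name. A probe set counted when its annotation gave exactly 1 gene symbol and that symbol began with Hnrnp, Srsf, Sf3a, Sf3b, Snrp, U2af, Celf, Mbnl, or Rbm followed by a digit. This took in 81 probe sets, and each gene was represented by the probe set with the highest mean over all 4 arrays. A further 10 probe sets name such a gene together with other genes and were left out by the rule. One member, Snrp1c-ps2, is annotated as a pseudogene.

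The RNA came from the cardiac ventricle of mice at 6 months of age, 2 samples labelled non-transgenic and 2 labelled transgenic. The transgenic mice overexpress serum response factor (SRF) moderately and in the heart only, and the comparison asks which transcripts differ from those of wild-type ventricle. No source used here gives the promoter of the transgene, the strain or the sex. The level of Srf is not analysed here, and so these arrays give no check of the transgene. Each sample is 1 Affymetrix oligonucleotide array, and the labels leave unsaid whether each came from a different animal. The p-values therefore measure only the spread between these arrays, which may be technical.

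Splicing removes introns from nascent RNA. Small nuclear ribonucleoproteins (snRNPs) recognise the splice sites. Most are an RNA with a ring of Sm proteins and particle-specific proteins. U2AF and the SF3A and SF3B complexes bring the U2 particle to the branch point. SR proteins (Srsf) mostly favour the use of an exon and many hnRNP proteins oppose it, so their balance sets exon choice. In heart muscle the CELF and MBNL proteins act against each other on exons that switch after birth. SRF is a transcription factor that binds the CArG box in promoters of muscle, cytoskeletal and immediate early genes. The arrays measure the amount of each factor's mRNA and do not measure splicing.

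Promoter windows are shown because the manipulated protein is a transcription factor with a known binding motif. They also show features, not used by the naming rule, that were more frequent in members than in all protein-coding genes. RefSeq windows (GRCm38.p6) of 300 bases, 250 before and 50 after the listed start, were found for 51 of the 60 members. The others are Celf4, Hnrnpll, Hnrnpul2, Rbm22, Rbm8a, Sf3b5, Snrp1c-ps2, Snrpb and U2af2. The letters of a CArG box, searched on both strands with no mismatch, were in 1 of the 51 windows (1.96%), against 1.54% of 17486 protein-coding genes (the start listed first for each gene). That 1 match lay in the window of Hnrnpd, an AU-rich element binding protein, at the listed start of transcription. The window with the match in capitals follows.
Hnrnpd (chr5:99978919-99978948, minus strand): cttccgtcggCCATTTTAGGtggtccgcgg
Hnrnpd signal was 121.3 and 157.1 without and 148.6 and 133.1 with the transgene. The groups overlapped, with a log2 change of 0.02 and a 95% interval from -0.39 to 0.44.

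The members' windows were rich in CpG. The ratio of observed to expected CpG had a median of 0.903 and was at least 0.6 in 47 of 51 members (92.2%), against 48.3% of protein-coding genes. The 4 members below that ratio at the start listed first were Celf2, Mbnl1, Rbm25 and Snrpa1. Celf2 and Mbnl1 have 5 and 2 listed starts, and the ratio at their other starts was not computed. The letters CCGGAAG, a core bound by ETS factors, stood in 15 of 51 members (29.4%) against 11.9% of protein-coding genes. By family this was 6 of 7 Sf3, 4 of 6 Snrp, 3 of 9 Srsf, 1 of 14 Hnrnp and 1 of 10 Rbm windows. In the U2af, Celf and Mbnl windows these letters were absent. The letters CCAAT stood in 26 members (51%) against 39%. By family this was 9 of 14 Hnrnp, 7 of 10 Rbm, 4 of 9 Srsf, 2 of 7 Sf3 and 2 of 6 Snrp windows. It was also 1 of 2 U2af, 0 of 2 Celf and 1 of 1 Mbnl windows. The letters GGGCGG were in 62.7% against 46.3%, and TATAAA in 15.7% against 13.3%. Both strands were searched, and matches were counted also where motifs overlapped. A match says only that these letters are present, and no test was made of the shares. The protein-coding genes compared were not limited to genes on the array or expressed in ventricle. Of the motif searches only that of the CArG box was planned at the outset. The 100 bases before the start are shown for 4 members whose signals are described below, with CCGGAAG on either strand in capitals.
Sf3b6 (chr12:4817508-4817607, plus strand): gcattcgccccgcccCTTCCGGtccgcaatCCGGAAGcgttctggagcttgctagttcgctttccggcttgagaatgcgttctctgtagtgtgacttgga
Sf3a3 (chr4:124714761-124714860, plus strand): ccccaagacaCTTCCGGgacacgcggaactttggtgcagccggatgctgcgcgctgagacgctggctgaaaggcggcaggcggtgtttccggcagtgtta
Sf3a2 (chr10:80798635-80798734, plus strand): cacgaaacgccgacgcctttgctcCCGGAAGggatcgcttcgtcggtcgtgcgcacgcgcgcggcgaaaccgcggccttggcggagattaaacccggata
Snrpb2 (chr2:143062969-143063068, plus strand): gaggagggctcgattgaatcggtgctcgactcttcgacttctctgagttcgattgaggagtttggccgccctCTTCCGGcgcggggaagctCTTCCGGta
The next 3 windows carry CCAAT on either strand, in capitals, and belong to 2 hnRNP genes and an SR protein gene.
Hnrnpr (chr4:136310842-136310941, plus strand): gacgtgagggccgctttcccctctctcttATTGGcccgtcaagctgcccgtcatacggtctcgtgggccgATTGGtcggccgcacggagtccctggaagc
Hnrnpk (chr13:58402118-58402217, minus strand): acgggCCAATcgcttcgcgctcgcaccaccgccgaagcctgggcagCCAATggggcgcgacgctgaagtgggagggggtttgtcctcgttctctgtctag
Srsf3 (chr17:29032560-29032659, plus strand): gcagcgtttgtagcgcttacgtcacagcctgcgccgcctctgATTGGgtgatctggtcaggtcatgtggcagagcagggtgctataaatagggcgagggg

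Several measures of the samples moved with the groups. Array medians ran from 49.0 to 53.9 and were lower in the transgenic group. Of the fixed cardiomyocyte markers 10 of 11 were measured, and their summed signal was 83304 and 82251 against 65669 and 66036. The summed signal of 16 of 17 hepatocyte markers was 3254 and 5980 in the non-transgenic samples and 276 and 314 in the transgenic ones, with albumin (Alb) at 855.5 and 1737.5 against 50.3 and 35.7. Fibroblast markers (9 of 9) summed to 6888 and 6804 against 11610 and 11091, and macrophage markers (9 of 9) to 2407 and 2657 against 3948 and 4049. Pdgfra of the fibroblast list went the other way, at 523 and 391.1 against 331.9 and 298.3. Atrial markers (3 of 3) summed to 351.5 and 557.5 against 1092.3 and 906.2, and adipocyte markers (2 of 4 measured) to 234.8 and 363 against 171.6 and 144.2. Not all of them went along. The atrial marker Sln read 10.1 and 22.8 against 19.6 and 6.6, with overlapping groups. The adipocyte marker Fabp4 read 59.6 and 125.2 against 97.8 and 69.6, again with overlap. Endothelial markers (6 of 6) summed to 1861 and 1934 against 1694 and 1623. Of these Kdr and Tek overlapped, and Vwf went the other way, at 305.4 and 338.4 against 352.3 and 353. Erythroid markers (2 of 3 measured) summed to 14804 and 13313 against 11987 and 12425, with overlapping groups in Alas2. Neuron markers (4 of 4) stayed between 16.6 and 41.5 in sum and T cell markers (3 of 3) between 17.4 and 25.4. The 3′ over 5′ ratio of the Gapdh control probe sets was 0.954 and 0.948 against 0.917 and 0.879, and that of beta-actin 1.22 and 1.11 against 1.20 and 1.30. A control for the 5′ part of 18S ribosomal RNA read 2.7 and 2.5 against 23.7 and 16.2. The part of these differences in the members' values was not tested. In whole tissue, fewer cells of a type and less RNA per cell cannot be told apart.

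No splicing factor or RNA-binding protein of the list passed the test in either direction. Of the 60 members 54 were bright enough to be tested, and 0 were higher and 0 lower in limma after Benjamini-Hochberg adjustment, while 7.93% of all 7453 probe sets tested were called (4.07% higher, 3.86% lower). The smallest adjusted p of a member was 0.117, for Rbm38. At an unadjusted p under 0.05 there were 7 members in limma, 5 with more signal in transgenic ventricle and 2 with less, which is 13.0% of the members against 24.2% of all probe sets tested. The 7 were Hnrnpul2, Srsf3, Sf3b6, Snrpe, Hnrnpdl, Rbm38 and U2af1l4. An ordinary two-sample test on the same values called 0 of all 7453 probe sets, so its 0 members says nothing about the list. At an unadjusted p under 0.05 that test had 6 members and 1175 of all probe sets tested. Without transgenic replicate 1, limma called 1 member, Hnrnpul2 (Benjamini-Hochberg adjusted p = 0.0421). Without any other single array it called 0. At a looser adjusted p of 0.10, limma with all 4 arrays called 0 members and 12.9% of all probe sets tested.

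The measured differences were small. The change of 53 of the 54 tested members was under 1.5-fold in either direction (98.1%, against 87.8% of all probe sets tested), on the scale of log2(signal + 9), where folds of dim genes are understated. The 95% interval lay inside 2-fold in both directions for 53 members (98.1%, against 82.2% of all probe sets tested). It lay inside 1.5-fold for 27 members (50%, against 38.0%). The exception at 2-fold was Hnrnpul2. These intervals rest on 2 arrays a group and are not adjusted for the number of genes, so for the other 27 members a change of 1.5-fold lies inside the interval. The median moderated standard error was 0.16 for the members and 0.18 over all probe sets tested, on the log2 scale.

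**Figure D1:**
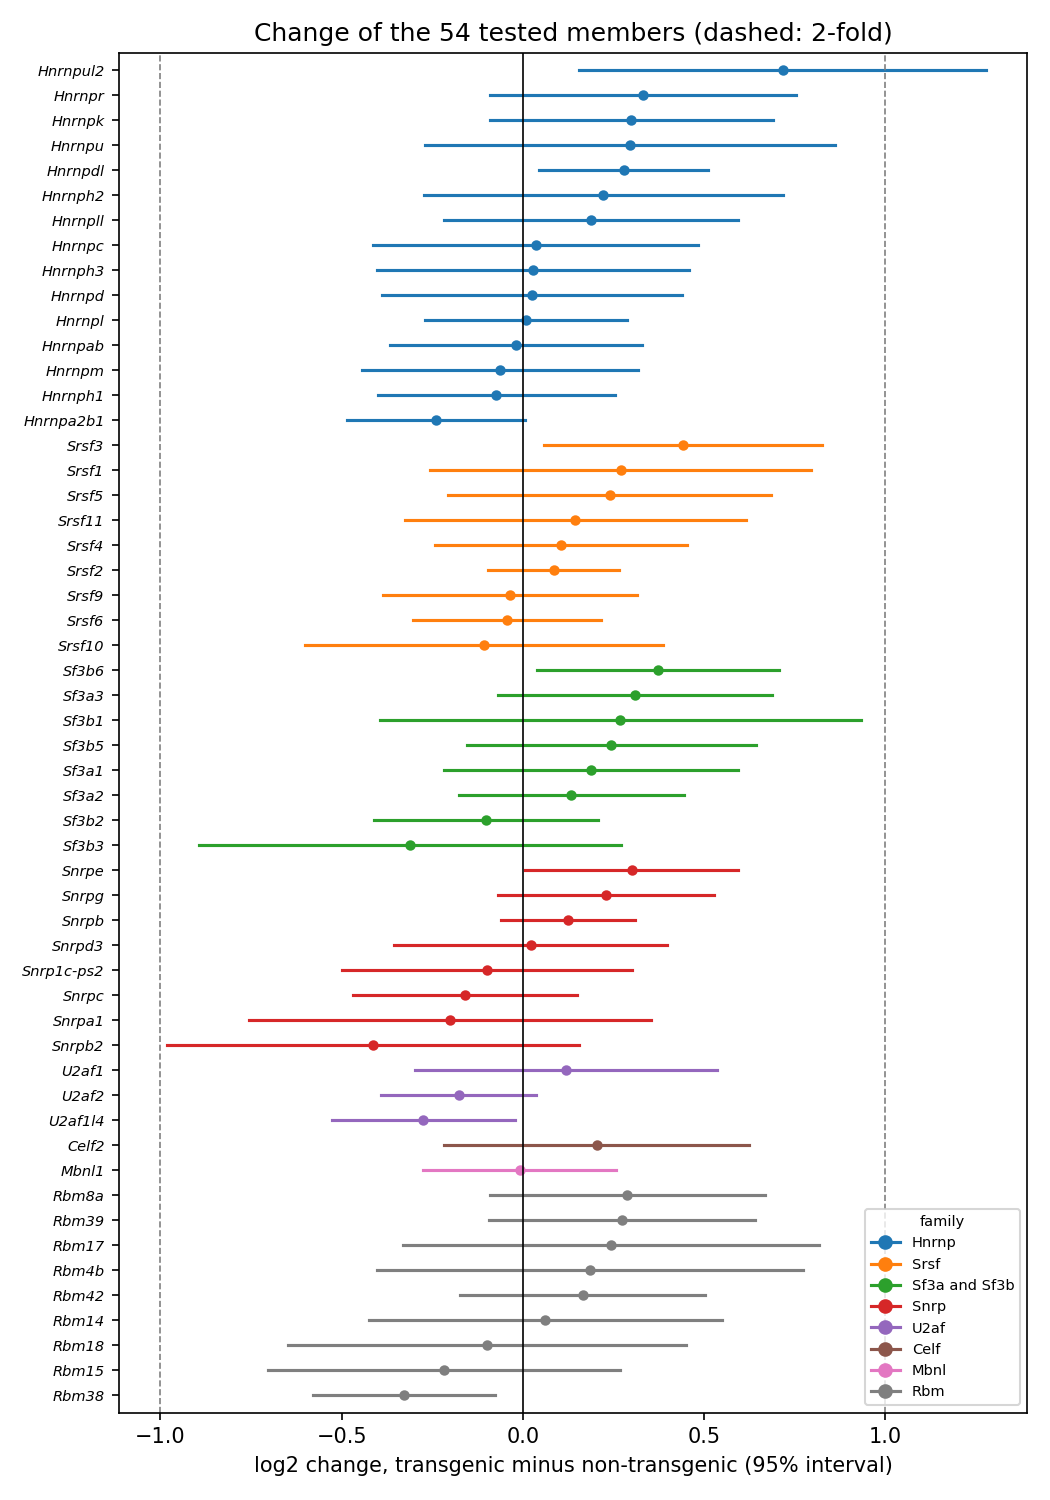
Log2 change (transgenic minus non-transgenic, x axis) of the 54 tested members (y axis), coloured by family. Points are the fitted changes, bars their 95% intervals in limma, and dashed lines 2-fold. The interval of Hnrnpul2 passes 2-fold, and the other 53 lie inside it.

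More members had a change above 0 than below it. The log2 change was above 0 in 35 and below 0 in 19 of the 54, and its median was 0.11, against -0.01 over all probe sets tested, of which 48.7% were above 0. With each array centred on its median the members' median was 0.19 and that of all probe sets 0.07, with 41 members above 0. After quantile normalization the medians were 0.11 and 0.01, with 34 members above 0. The members' median was 0.055 without transgenic replicate 1, 0.082 without non-transgenic replicate 1, and 0.061 with the mean of all tested probe sets of a gene. The transgenic arrays lay apart from the non-transgenic ones in 28 members (51.9%), against 55.9% of all probe sets tested. They lay above in 20 members (37.0%, against 27.8%) and below in 8 (14.8%, against 28.1%). By family the median was 0.22 for Sf3a and Sf3b, 0.17 for Rbm, 0.11 for Srsf, 0.04 for Hnrnp, -0.04 for Snrp and -0.18 for the 3 U2af members. The 1 tested Celf member had 0.20 and the 1 Mbnl member -0.01. Array by array, the members' median log2 signal exceeded that of all probe sets tested by 0.413 and 0.192 without the transgene. With it the excess was 0.367 and 0.332, so by this measure the groups overlapped. These are descriptions of the list, and nothing particular to it was tested.

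**Figure D2:**
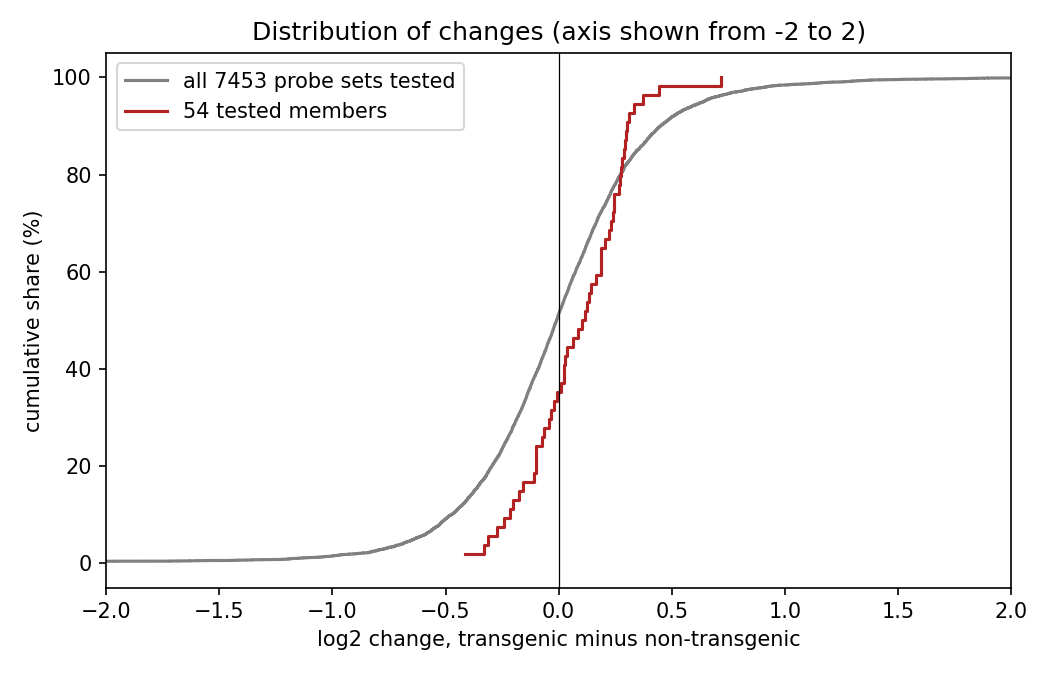
Cumulative share (%, y axis) of probe sets by log2 change (transgenic minus non-transgenic, x axis, shown from -2 to 2). The red line holds the 54 tested members, from -0.41 to 0.72, and the grey line all 7453 probe sets tested. The red line is steeper and its median lies at 0.11, against -0.01 for the grey line.

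Among the hnRNP proteins, which coat nascent transcripts, 15 of 16 members were tested, and the log2 changes ran from -0.24 to 0.72. Hnrnpul2, a relative of the scaffold protein hnRNP U, had a signal of 90.0 and 80.7 without and 113.9 and 186.3 with the transgene. Both transgenic arrays were above both others, but they differed from each other 1.64-fold. The log2 change was 0.72 ± 0.24 (SE), with an interval from 0.16 to 1.28 and a Benjamini-Hochberg adjusted p of 0.122 by limma. Without transgenic replicate 1 the log2 change was 1.05, and without transgenic replicate 2 it was 0.38 (Benjamini-Hochberg adjusted p = 0.0421 and 0.472 by limma). The second Hnrnpul2 probe set read 66.9 and 41.2 against 55.0 and 52.8, with overlapping groups and a log2 change of 0.03. The 2 probe sets of this gene differed by 0.69 on the log2 scale, the widest gap among the members with 2 tested probe sets.

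Hnrnpr, which binds mRNA in the nucleus and in axons, read 104.3 and 98.6 against 147.8 and 114.3. Hnrnpk, a poly(C)-binding hnRNP, read 84.8 and 91.3 against 105.5 and 115.5. In both genes the groups lay apart, with log2 changes of 0.33 ± 0.18 and 0.30 ± 0.17 (SE) that did not pass the test (Benjamini-Hochberg adjusted p = 0.304 and 0.314 by limma). The change of Hnrnpr was 0.16 without transgenic replicate 1 and 0.51 without transgenic replicate 2 (Benjamini-Hochberg adjusted p = 0.816 and 0.273 by limma). Hnrnpdl, a paralogue of Hnrnpd, read 530.3 and 518.3 against 621.9 and 654.6. Its arrays within a group differed by 1.02-fold and 1.05-fold, and its log2 change was 0.28 ± 0.10 (SE; Benjamini-Hochberg adjusted p = 0.143 by limma). Its other tested probe set had a log2 change of 0.05.

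Hnrnpa2b1, which sorts RNA and blocks exons together with hnRNP A1, was lowest in this family by change. It read 849.3 and 874.2 in non-transgenic and 780.0 and 679.9 in transgenic ventricle. The groups lay apart, with a log2 change of -0.24 ± 0.10 (SE; Benjamini-Hochberg adjusted p = 0.215 by limma), and a dimmer probe set gave -0.30. Hnrnpl, which binds CA repeats, read 316.8 and 299.4 against 319.2 and 300.9, and its interval ran from -0.27 to 0.29. Hnrnph1, which binds G-rich runs, read 283.7 and 262.3 against 237.5 and 282.3. Hnrnpa1 was not tested, because its only probe set of its own read 38.3 and 22.6 against 35.5 and 23.2 and fell just under the filter on dim probe sets.

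**Figure D3:**
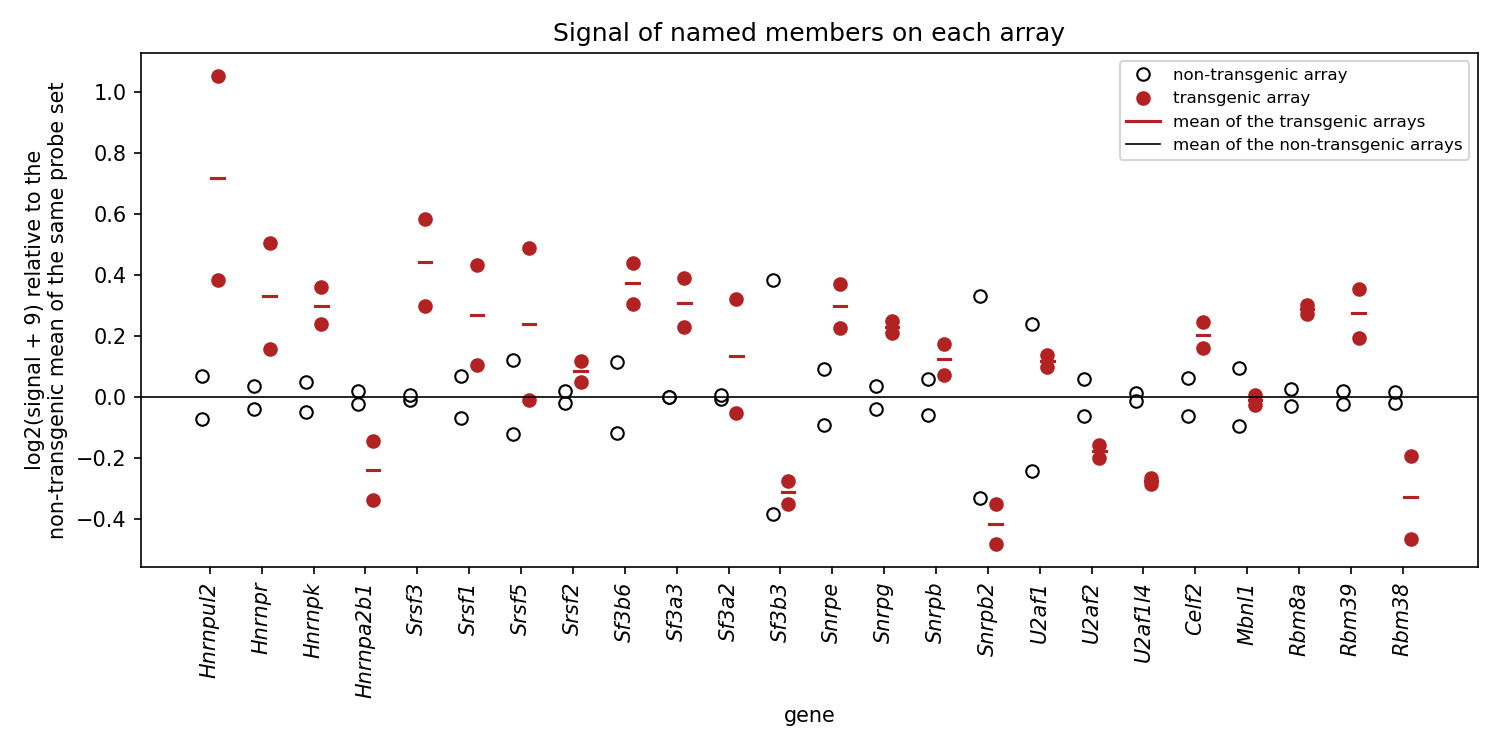
Signal on each array of the 24 members named by rule (x axis), as log2(signal + 9) minus the non-transgenic mean of the same probe set (y axis). Open circles are non-transgenic arrays, red circles transgenic arrays and red bars their mean. In Hnrnpul2 and Srsf5 the transgenic arrays differ 1.64-fold and 1.43-fold, while in U2af1l4 (355.5 and 360.2) and Rbm8a (111.8 and 109.4) they lie close together.

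All 9 SR proteins were tested, and their log2 changes ran from -0.11 to 0.44. Srsf3, the smallest SR protein, had a signal of 114.3 and 115.7 in non-transgenic and 143.7 and 176.9 in transgenic ventricle. The groups lay apart, and the log2 change was 0.44 ± 0.16 (SE; Benjamini-Hochberg adjusted p = 0.157 by limma). Its probe set is marked as one that can bind several related transcripts. A dimmer probe set for Srsf3 read 28.8 and 33.2 against 28.8 and 37.8, and its groups overlapped.

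Srsf1, the founding SR protein and a regulator of heart-specific exons, read 45.1 and 50.5 against 52.1 and 67.6. A second probe set for Srsf1 read 51.6 and 55.4 against 45.9 and 42.1, so the log2 changes were of opposite sign, 0.27 and -0.24. Neither passed the test (Benjamini-Hochberg adjusted p = 0.506 and 0.541 by limma). Srsf5, an SR protein that binds exonic enhancers, read 236.2 and 280.9 against 365.3 and 255.8, and its change of 0.24 rested on transgenic replicate 1, since it was -0.01 without that array. Srsf2, which acts on both splicing and transcription, read 1657.8 and 1704.9 against 1826.5 and 1741.7, with an interval from -0.10 to 0.27. Srsf6 read 692.1 and 628.0 against 677.9 and 602.8, and the other members of the family, Srsf4, Srsf9, Srsf10 and Srsf11, had log2 changes between -0.11 and 0.14.

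The SF3A and SF3B complexes anchor the U2 particle at the branch point, and all 8 measured subunits were tested. Sf3b6, the subunit that touches the branch-point adenosine, read 192.2 and 227.2 against 260.7 and 286.6. Sf3a3, a subunit of SF3A, read 98.7 and 98.8 against 117.3 and 132.2. Both had transgenic arrays above the others, with log2 changes of 0.37 ± 0.14 and 0.31 ± 0.16 (SE; Benjamini-Hochberg adjusted p = 0.165 and 0.286 by limma). Sf3b3, the large scaffold of SF3B, read 239.2 and 137.0 in the non-transgenic samples and 140.4 and 148.5 in the transgenic ones. The non-transgenic arrays differed 1.75-fold and enclosed the transgenic values, and the log2 change of -0.31 became 0.07 without non-transgenic replicate 1.

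Sf3b1, the subunit that holds the branch helix, read 107.9 and 89.9 against 164.8 and 87.6. Its transgenic arrays differed 1.88-fold and the groups overlapped, so its interval reached from -0.39 to 0.93. Sf3a2 read 884.2 and 892.7 against 856.5 and 1112.0, and its 2 probe sets had log2 changes of 0.13 and -0.02. Sf3a1, Sf3b2 and Sf3b5 had log2 changes of 0.19, -0.10 and 0.24.

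The Snrp genes moved both ways by sign, with log2 changes from -0.41 to 0.30 in the 8 members, all tested. Among the 8 is the pseudogene Snrp1c-ps2, which read 200.2 and 214.9 against 223.2 and 166.6, with overlapping groups and a log2 change of -0.10. Snrpe, a subunit of the Sm ring, read 358.0 and 314.1 against 394.4 and 436.7. Snrpg, its neighbour in the ring, read 212.4 and 201.1 against 247.6 and 240.4. Snrpb, which encodes the Sm protein B, read 2781.2 and 2560.1 against 2810.0 and 3012.7. In these 3 ring genes the transgenic arrays lay above the others, as they did in 27.8% of all probe sets tested. The Snrpe and Snrpb probe sets are marked as shared by related transcripts or picked under relaxed rules. A second Snrpb probe set, under the filter, read 2.2 and 7.5 against 4.2 and 1.5, with overlapping groups. The log2 changes of the 3 genes were 0.30 ± 0.12, 0.23 ± 0.13 and 0.12 ± 0.08 (SE). None passed the test (Benjamini-Hochberg adjusted p = 0.199, 0.313 and 0.378 by limma). The fourth ring gene measured, Snrpd3, read 102.6 and 98.1 against 103.3 and 100.7, with overlapping groups.

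The 3 particle-specific snRNP proteins measured had log2 changes below 0, while 48.7% of all probe sets tested were above 0. Setting them apart from the ring genes was not part of the naming rule, and the split was not tested. Snrpb2, a protein of the U2 particle, read 147.8 and 90.1 against 88.9 and 80.4. The transgenic arrays were both lower, by a log2 change of -0.41 ± 0.24 (SE; Benjamini-Hochberg adjusted p = 0.339 by limma), but the non-transgenic arrays differed 1.64-fold, and the change was -0.08 without non-transgenic replicate 1. A dimmer Snrpb2 probe set, under the filter, read 24.0 and 25.7 against 26.8 and 20.7, with overlapping groups. Snrpa1, the partner of Snrpb2 in the U2 particle, read 61.1 and 52.3 against 56.3 and 40.8, also with overlapping groups. Snrpc, a protein of the U1 particle, read 207.8 and 200.7 against 180.0 and 184.0, with groups apart and a log2 change of -0.16. None of these 3 passed the test.

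The U2AF proteins recognise the end of the intron. U2af1l4, a paralogue of the small subunit, read 439.1 and 430.5 in non-transgenic and 355.5 and 360.2 in transgenic ventricle. The arrays of a group differed by 1.02-fold and 1.01-fold, and the groups lay apart by a log2 change of -0.27 ± 0.11 (SE; Benjamini-Hochberg adjusted p = 0.176 by limma). U2af2, the large subunit that binds the polypyrimidine tract, read 1137.3 and 1044.7 against 948.5 and 977.5. Its groups lay apart as well, with a log2 change of -0.18 ± 0.09 (SE; Benjamini-Hochberg adjusted p = 0.280 by limma). U2af1, the small subunit, read 197.6 and 279.2 against 252.5 and 259.4, and its transgenic arrays lay between the others.

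Of the developmental regulators, Mbnl1, the muscleblind protein sequestered by repeat RNA in myotonic dystrophy, read 467.8 and 534.7 against 502.8 and 491.3. Its transgenic arrays lay between the non-transgenic ones, and its log2 change of -0.01 had an interval from -0.27 to 0.26. Celf2, a CELF protein of heart and brain, read 76.3 and 69.3 against 88.0 and 82.4, a log2 change of 0.20 ± 0.18 (SE; Benjamini-Hochberg adjusted p = 0.529 by limma). A dimmer Celf2 probe set gave -0.08. Celf1, the factor that declines in heart after birth, and Celf4 were not tested. Celf1 read 18.6 and 3.8 against 32.2 and 15.3, and Celf4 read 21.0 and 14.5 against 15.7 and 17.9, both with overlapping groups in these probe sets and under the filter on dim probe sets. The other Celf1 probe set read 8.0 and 3.9 against 14.6 and 15.6, with both transgenic arrays above and also under the filter.

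In the Rbm group 9 of 12 members were tested, with log2 changes from -0.33 to 0.29. Rbm38, a target of p53 that binds and stabilises mRNAs, read 1545.6 and 1586.2 in non-transgenic and 1132.5 and 1369.1 in transgenic ventricle. Both transgenic arrays were lower, by a log2 change of -0.33 ± 0.11 (SE), with an interval from -0.58 to -0.08 and a Benjamini-Hochberg adjusted p of 0.117 by limma. Without transgenic replicate 2 the log2 change was -0.46 (Benjamini-Hochberg adjusted p = 0.0548 by limma), and without transgenic replicate 1 it was -0.19 (adjusted p = 0.469). Rbm8a, the Y14 subunit of the exon junction complex, read 90.8 and 87.1 against 111.8 and 109.4. Rbm39, a coactivator related to U2AF, read 111.6 and 108.1 against 127.0 and 142.9. Both had groups apart, with log2 changes of 0.29 and 0.27 (Benjamini-Hochberg adjusted p = 0.319 and 0.327 by limma), and a second Rbm39 probe set gave 0.40.

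In Rbm14, Rbm17, Rbm18, Rbm42 and Rbm4b the non-transgenic arrays differed more from each other than the group means did. Rbm17, a factor of alternative 3′ splice sites, read 169.9 and 281.5 against 297.9 and 228.4. Rbm18 read 204.3 and 123.4 against 140.7 and 155.6, and Rbm4b read 174.5 and 99.8 against 159.8 and 144.2. In Rbm17, Rbm18 and Rbm4b the groups overlapped and the non-transgenic arrays differed by 1.66-fold to 1.75-fold. Rbm6, Rbm22 and Rbm25 were not tested, and their signals lay between 0.7 and 32.0.

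Of the 60 members 18 had several probe sets, and 11 had 2 that were tested. The log2 changes of the pair had 1 sign in 8 genes and opposite signs in 3, Celf2, Sf3a2 and Srsf1. The gap ranged from 0.05 for Srsf4 to 0.69 for Hnrnpul2, and 0 of the second probe sets passed the test in limma. Of the 60 chosen probe sets 12 carry a suffix that marks probes shared by related transcripts or picked under relaxed rules.

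**Figure D4:**
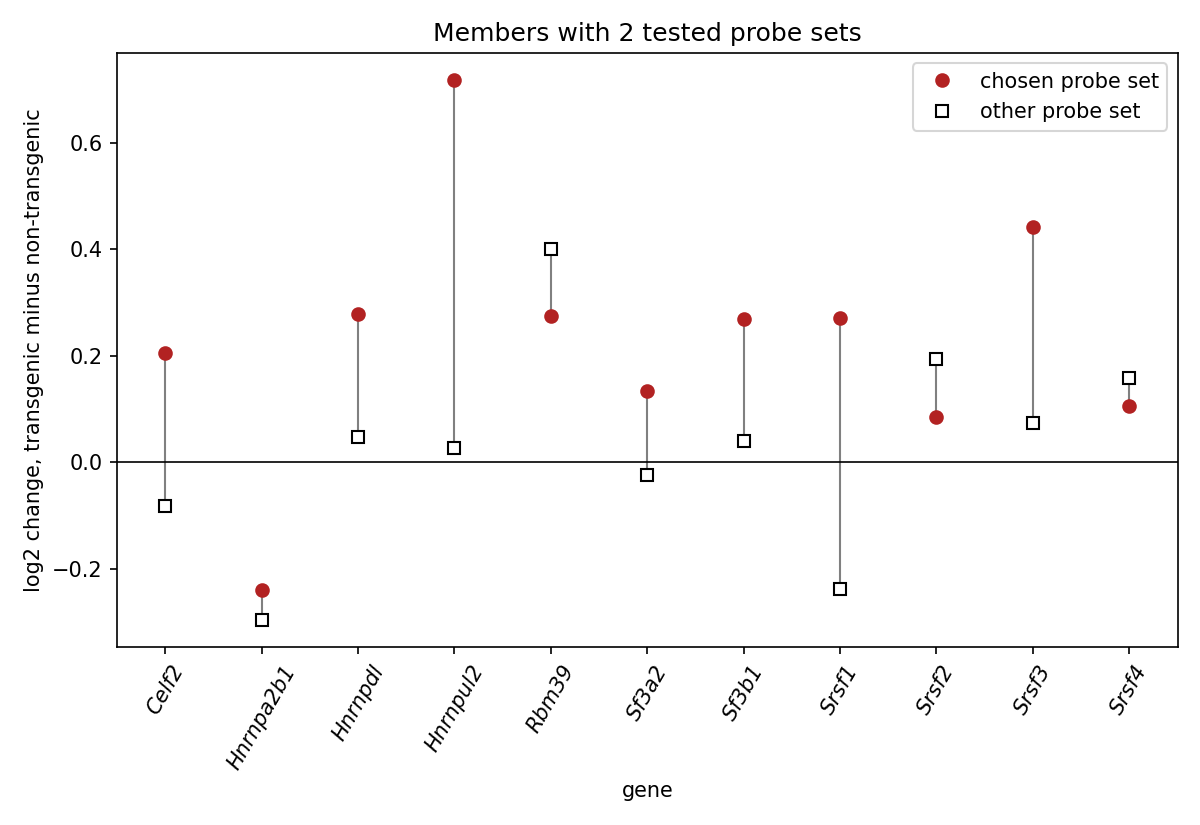
Log2 change (transgenic minus non-transgenic, y axis) of the 11 members with 2 tested probe sets (x axis). Red circles are the chosen probe sets and open squares the other ones. The pairs of Hnrnpul2 (0.72 and 0.03) and Srsf1 (0.27 and -0.24) lie farthest apart.

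Other spliceosome and RNA-binding genes gave 1 call. Of 81 measured genes of that list 70 were tested, and 0 were higher and 1 lower in limma with Benjamini-Hochberg adjustment, with a median log2 change of -0.02. Of all probe sets tested 7.93% were called. At an unadjusted p under 0.05 in limma there were 8 genes of the list, which is 11.4% against 24.2% of all probe sets tested. The 1 called gene was Cirbp, the cold-inducible RNA-binding protein, which read 616.0 and 498.0 in non-transgenic and 324.7 and 360.4 in transgenic ventricle. Both transgenic arrays were lower, and Cirbp fell by 0.68 ± 0.14 (SE), which is 1.60-fold (Benjamini-Hochberg adjusted p = 0.0298 by limma). The call ended without non-transgenic replicate 1 or without transgenic replicate 1 (Benjamini-Hochberg adjusted p = 0.0910 and 0.0927 by limma). It also ended without the filter on dim probe sets and without a variance trend (Benjamini-Hochberg adjusted p = 0.0593 and 0.116 by limma). In the ordinary two-sample test, which called 0 of all 7453 probe sets, the adjusted p of Cirbp was 0.322. Syncrip, an hnRNP-related protein of mRNA transport named here after its values were seen, read 67.7 and 61.6 against 115.4 and 98.8 and did not pass (log2 change 0.65 ± 0.18 SE, Benjamini-Hochberg adjusted p = 0.0799 by limma).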

How the data were processed

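The 4 arrays carried biotin-labelled RNA, per the labels' protocols. The authors deposited a linear-scale intensity for every probe set, and no source used here names the software. Mean signals without the top and bottom 2% were 150.1 on each array, so scaling to a common level had been done before deposit. Of 12488 probe sets 66 controls were left out. Genes were named through the platform annotation (10833 probe sets with 1 symbol, 396 with several, 1193 not listed). Values were turned into log2(value + 9), 9 being the 20th percentile rounded, and used as deposited because array medians lay within 0.12 of each other on the log2 scale. A filter blind to group removed the dimmest 40% by mean log2 value and kept 7453. The fit used lmFit and eBayes with a variance trend (limma 3.58.1 in R 4.3.3) and two-sided p-values. Benjamini-Hochberg adjustment ran over all 7453, with a threshold of 0.05. The prior had 5.05 degrees of freedom and the design 2. Errors are moderated standard errors. The fit was also run on simulated data drawn from its own variance model, which cannot show how it does on real arrays. The naming rule took every member past the threshold (there were none), the 3 largest changes of each family and its member of highest signal. Other members are described in the text outside this rule. Alternatives were other pseudocounts, scalings, filters, variance models, thresholds, a replicate block and leaving out each array. Members and lists were chosen with earlier results of these data known. The number of arrays limits precision.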

Additional observations from a re-analysis of the deposited data

How the results depend on the processing

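The count of members called, 0 higher and 0 lower, held under each alternative pseudocount, scaling, filter, variance model, threshold and test, with the replicate block and with the mean of a gene's tested probe sets. Without transgenic replicate 1 it was 1 higher (Hnrnpul2, log2 change 1.05, Benjamini-Hochberg adjusted p = 0.0421 by limma), and without transgenic replicate 2 the change of Hnrnpul2 was 0.38 (0.472), so leaving out 1 array gave 0 to 1 higher and 0 to 0 lower. The other list had 0 lower (Cirbp was no longer called) without the filter, without a trend of variance and in the ordinary two-sample test, and 1 higher at an adjusted p of 0.10 (Syncrip) and with the replicate block (Pabpc1). Leaving out 1 array gave that list 0 to 1 higher and 0 to 2 lower. Leaving out an array turned the sign of the log2 change of Sf3b3 (range -0.69 to 0.071), U2af1 (-0.12 to 0.36), Sf3a2 (-0.052 to 0.32), Srsf5 (-0.0099 to 0.49) and Mbnl1 (-0.10 to 0.086), and median centring that of Mbnl1 (0.069). The cause was not tested. Whether the replicate numbers pair the samples is not known. The correlation of deviations, -0.06, cannot settle it with 2 arrays a group. With the block 693 probe sets were called in all against 591. Over all probe sets the count was 78 without a trend and 0 in the ordinary test (1175 at an unadjusted p under 0.05), and without the filter 329 of 12422. With 2 arrays a group, the 95% interval of 27 of the 54 members reached past 1.5-fold.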
